A study of Mus musculus with 24 samples.

Results

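The libraries described here were made from mouse embryonic fibroblasts that had received the cocktail GMT and were harvested at day 7 or at day 2. They were chosen by label, the 3 GMT libraries of day 7 against the 3 GMT libraries of day 2, and are 6 of the 24 RNA-seq libraries of the series. GMT stands for the transcription factors Gata4, Mef2c and Tbx5. All cells were primary fibroblasts of C57BL/6 embryos. The protocol gives transduction with retroviruses in 2 rounds of 24 hours and then an induction medium with serum and insulin. The other groups, also with 3 libraries at each day, were mock cells, cells given GHMT (GMT and Hand2) and cells given AGHMT (GHMT and Akt1). The labels do not say whether mock cells received an empty virus. The cultures were not sorted for transduced cells as far as the labels say, so each value is an average over reprogramming and other cells. Nor do they say that the 3 replicates came from separate cultures, and the p-values rest on a spread between libraries that may be technical only. Batches are not given, and day and batch of culture or sequencing cannot be told apart. In bulk RNA, fewer cells that express a gene and less RNA of that gene per cell cannot be told apart.

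Gata4, Mef2c and Tbx5 act together in the embryonic heart to switch on the genes of the contractile apparatus, and their forced expression turns a fraction of fibroblasts into cells with features of heart muscle. During that conversion, heart muscle genes are switched on and genes of the fibroblast programme, chief among them the extracellular matrix genes, are turned down. The conversion is known to be incomplete in most cells. The question addressed was how the transcriptome of these cultures moved over time under this cocktail, with mock and the larger cocktails as the background.

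The GMT libraries held between 31788537 and 36830759 counts and detected 23676 to 24241 genes. Across the 24 libraries the totals ran from 29345957 to 37495178 counts. The GMT replicates lay close together, with a chi-square over genes, divided by its degrees of freedom, of 1.54 to 3.10 for the 6 pairs within a day. The library AGHMT day 2 replicate 3 stood apart from the other 2 of its group (43.2 and 46.4, against 2.17 between those 2), and it enters the GMT results only through the shared estimate of the spread. Fibroblast markers were present in GMT cells at day 2: Col1a1 was at 6294 CPM (counts relative to the library total after TMM scaling, the unit of all levels below), Vim at 7442 and Thy1 at 466. Most fibroblast identity genes were nevertheless lower than in mock at that day, as given below.

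The transcriptome under GMT moved widely between the days. Of 17576 genes tested, 9115 (51.9%) were called at an adjusted p under 0.05 by edgeR's quasi-likelihood test, 4829 (27.5%) higher and 4286 (24.4%) lower at day 7. Most of these differences were small: 1089 genes (6.2%) were called and at least 2-fold higher, and 886 (5.04%) at least 2-fold lower. The median log2 change over all tested genes was 0.000608. In mock cells, 9754 genes (55.5%) were called between the same days, 29.7% of the genes tested higher and 25.8% lower. The 2 day changes themselves differed in 8707 genes (49.5%; 24.3% more upward under GMT and 25.3% more downward) by the interaction test, which compares 4 groups of libraries with none in common. Among these, 1200 genes (6.83% of those tested) rose under GMT while they fell in mock, and 1326 (7.54%) fell under GMT while they rose in mock. When AGHMT day 2 replicate 3 was left out of the shared spread, 5302 genes were called higher and 4779 lower under GMT.

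**Figure D1:**
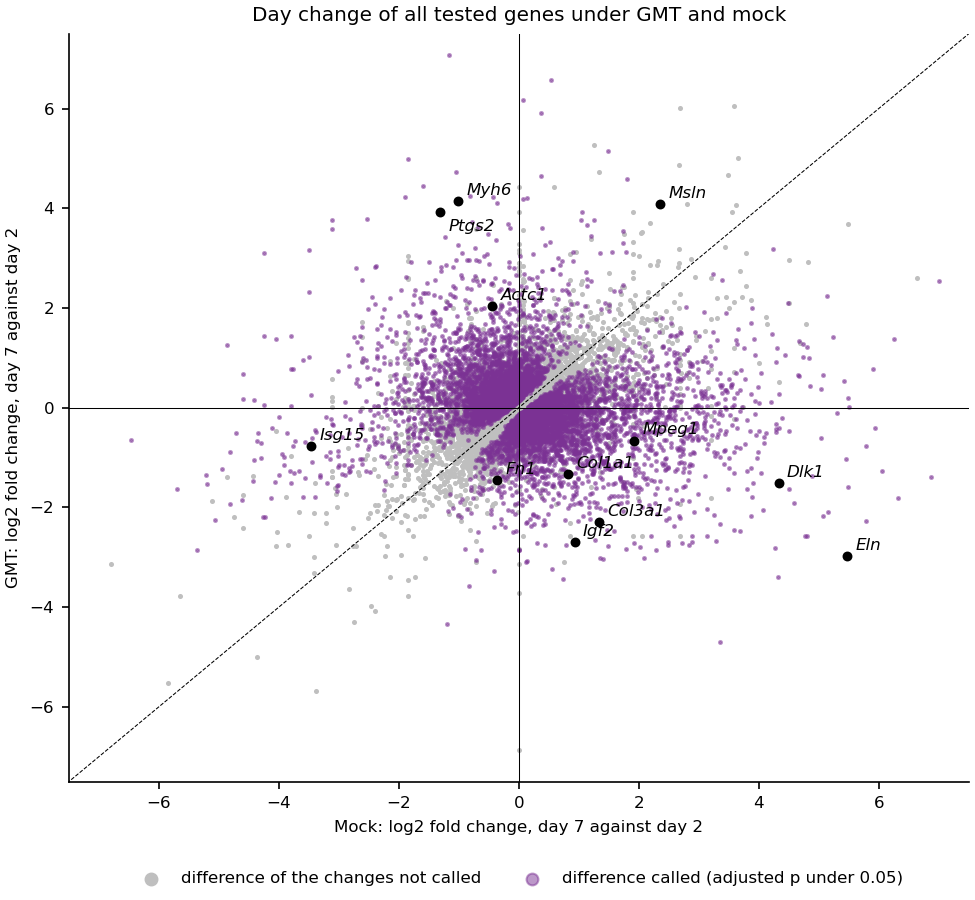
Log2 fold change from day 2 to day 7 in mock cells (horizontal axis) and in GMT cells (vertical axis) for the 17576 genes tested. Each point is a gene, purple where the difference between the changes was called, and the dashed line marks equal changes. Myh6, Ptgs2 and Actc1 lie at the upper left (higher under GMT, lower in mock), while Eln, Dlk1, Igf2, Col1a1 and Col3a1 lie at the lower right.

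The factors of the cocktail were present at high and slowly falling levels. The gene counts include viral and endogenous transcripts alike. Gata4 stood at 1168, 1142 and 1118 CPM at day 2 and at 1026, 1048 and 992 CPM at day 7, while mock cells held less than 2 CPM on average at either day. The change was small (log2 fold change -0.16 ± 0.05, SE, edgeR adjusted p = 0.0061). Mef2c fell from 2809.9, 2835 and 2754 to 1656, 1739 and 1648 CPM (-0.74 ± 0.05, adjusted p = 1.86e-12) and Tbx5 from 3013, 2999 and 2937 to 2302, 2400.4 and 2279 CPM (-0.36 ± 0.05, adjusted p = 1.36e-06). For all 3 factors, every library of day 7 lay below every library of day 2, as in 31.8% of all genes tested. Hand2 and Akt1, which are not in this cocktail, stood at 3.95 and 3.23 CPM and at 366 and 380.1 CPM. Hand2 was called lower (-0.29 ± 0.08), a call that was lost without day 7 replicate 1, and Akt1 was not called.

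Genes of the sarcomere, the repeating contractile unit of striated muscle, rose as a group. Of 39 members tested, 33 were called higher, 1 lower and 5 were not called, with a median log2 change of 1.38 against 0.000608 for all genes. In mock cells 7 members were called higher and 8 lower (median -0.09). Myh6, the fast heart myosin heavy chain, showed the largest rise of the list. It stood at 15.0, 13.7 and 14.4 CPM in the libraries of day 2 and at 261, 258 and 241 CPM in those of day 7, with 1.38 and 0.681 CPM in mock. All 3 libraries of day 7 lay far above those of day 2 (log2 fold change 4.14 ± 0.10, SE, edgeR adjusted p = 2.94e-20). Myh6 lies on GRCm38 chromosome 14, 54941921 to 54966927 and is close in sequence to Myh7, with which it could share reads. Myh7, the slow heavy chain, was at 0.440 and 0.532 CPM and was not called.

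Other members with large rises had roles across the sarcomere. Actn2, which cross-links actin at the Z disc, went from 5.14, 5.19 and 6.12 to 60.5, 62.8 and 61.6 CPM (log2 fold change 3.49 ± 0.06). Actc1, the cardiac alpha-actin, went from 336, 339 and 320.0 to 1387, 1339 and 1331 CPM (2.03 ± 0.07, edgeR adjusted p = 1.22e-17). Mybpc3, the cardiac myosin-binding protein C, went from 131, 127 and 129 to 643, 695 and 664 CPM (2.37 ± 0.06), and mock cells held 0.280 and 0.0820 CPM. In all 3 genes the libraries of day 7 lay above those of day 2 without overlap, as in 33.9% of all genes. Tnnc1, the calcium-binding troponin subunit of heart and slow muscle, rose from a mean of 59.2 to 307 CPM. Tnnt2, the cardiac subunit that ties troponin to tropomyosin, was already at 2753 CPM at day 2 and rose less (0.93 ± 0.08). Titin (Ttn), the giant elastic protein of the sarcomere, rose from 256 to 627 CPM, and Lmod2, which lengthens thin filaments, from 2.34 to 24.4 CPM. Myom2, of the M band, rose from 399 to 1172 CPM.

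Some members stayed low or did not move. Myl2, the ventricular regulatory light chain, was at 0.490 and 0.383 CPM. Myl3, the ventricular essential light chain, was the member called lower, from 0.381 to 0.131 CPM, and this call was lost when any of 3 libraries (day 2 replicate 3, day 7 replicates 1 and 3) was left out. The atrial light chains rose from a high level instead: Myl4 from 951, 923 and 906 to 2765, 2932 and 2754 CPM (edgeR adjusted p = 3.63e-13) and Myl7 from a mean of 725 to 1593 CPM. Des, the muscle intermediate filament, was at 1301 and 1402 CPM and was not called, except with the GMT libraries fitted alone or without AGHMT day 2 replicate 3, where it was called higher. Cmya5 and Mypn were not called either.

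GATA, MEF2 and T-box factors bind short sequences that could be searched in the 250 bases before each start site in RefSeq (GRCm38.p6, both strands), where 31 of the 39 members had a window. A MEF2 match, CTA and TAG with 4 free bases between them, was found in 7 of them (22.6%, against 3.7% of all 27018 genes with a window), and all 7 were called higher, as were 33 of the 39 members in all. A GATA match, AGATAA, was found in 7 (22.6% against 11.4%), of which 5 were called higher and Myl2 and Cmya5 were not called. A T-box match, GGTGTGA, was found in 4 (12.9% against 3.85%), all called higher. These shares are descriptions, and a match is not a bound site. The 160 bases before the start sites of Mybpc3 (chr2:91117984-91118143, plus strand) and Synpo2l (chr14:20668355-20668514, minus strand, the first of its RefSeq start sites), which encodes a Z disc protein that rose from 32.9 to 138 CPM, were chosen after their values were seen to show what such a match looks like. The sequences run 5′ to 3′ on the strand of the gene, with the MEF2 match in capitals.
Mybpc3: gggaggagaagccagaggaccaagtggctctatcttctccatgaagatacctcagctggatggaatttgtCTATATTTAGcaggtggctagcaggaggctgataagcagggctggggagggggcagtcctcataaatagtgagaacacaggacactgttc
Synpo2l: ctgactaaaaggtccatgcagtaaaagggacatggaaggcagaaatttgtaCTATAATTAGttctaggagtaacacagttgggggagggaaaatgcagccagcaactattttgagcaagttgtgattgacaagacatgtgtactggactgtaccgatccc

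**Figure D2:**
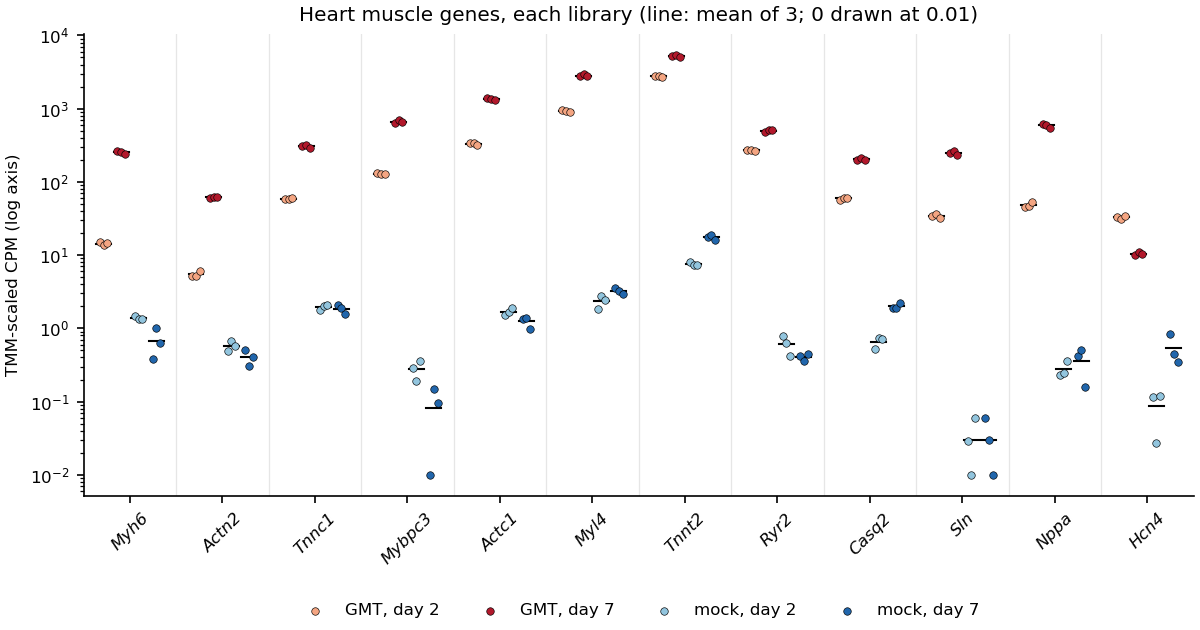
Levels of 12 heart muscle genes in each library of GMT and mock cells at days 2 and 7, in TMM-scaled CPM on a log axis, with a line at the mean of 3 libraries and a value of 0 drawn at 0.01. In GMT cells, 11 genes are higher at day 7 and Hcn4 is lower, while every mock library lies below every GMT library for each of the 12 genes.

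Natriuretic peptides and atrial genes rose as well, with 13 of 18 members called higher and 2 lower (median 0.61), or 1 lower without day 7 replicate 1 or 2. Nppa, the atrial natriuretic peptide, went from 45.4, 46.9 and 54.0 to 622, 602 and 546 CPM (log2 fold change 3.60 ± 0.09, edgeR adjusted p = 1.05e-19). Nppb, the brain natriuretic peptide, went from 10.3, 9.98 and 11.5 to 114, 112 and 93.6 CPM (3.33 ± 0.10). Both peptides were below 2 CPM on average in mock cells at either day, and no day 7 library of GMT cells overlapped those of day 2. Corin, the protease that activates the atrial peptide, rose from 85.4 to 138 CPM. Kcnj5, a subunit of the atrial acetylcholine-gated potassium channel, rose from 22.2 to 96.6 CPM. Dkk3, a secreted protein of the Dickkopf family, fell from 86.2 to 37.1 CPM.

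Genes of calcium handling and excitation were more mixed, with 23 of 39 called higher and 7 lower (median 0.47), beside 27.5% and 24.4% of all genes tested. In mock 12 were called higher and 9 lower (median 0.08). The change was more upward under GMT than in mock in 12 members and more downward in 11, beside 24.3% and 25.3% of all genes. Sln, sarcolipin, an inhibitor of the calcium pump in atrial muscle, went from 33.7, 36.1 and 32.3 to 244, 262 and 231 CPM (2.85 ± 0.09). Casq2, the calcium buffer of the cardiac sarcoplasmic reticulum, went from 56.0, 61.0 and 61.1 to 202, 213 and 198 CPM (1.78 ± 0.05). The release channel Ryr2 rose from 270.0 to 503 CPM and the pump Atp2a2 from 1309.8 to 2452 CPM, each by a log2 change near 0.90. The calcium exchanger Slc8a1 rose from 43.6 to 96.2 CPM. In the other direction, the pacemaker channel Hcn4 fell from 32.9, 31.0 and 34.6 to 10.1, 11.1 and 10.2 CPM (-1.65 ± 0.15, edgeR adjusted p = 1.74e-09), without overlap between the days. Cacna1c, the pore of the L-type calcium channel, fell from 54.9 to 40.4 CPM. Kcnj2, which sets the resting potential, was at 2.52 and 1.74 CPM and was called lower only with no filter or with the GMT libraries fitted alone, while it rose in mock to 11.2 CPM.

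Of 32 other cardiac regulators tested, 13 were called higher and 9 lower, with a median of 0.08. Over all genes tested, 27.5% were called higher and 24.4% lower. Tbx20, a T-box factor of the heart, was the member with the largest called rise, from 11.0, 11.6 and 12.3 to 43.3, 43.1 and 44.2 CPM (1.91 ± 0.08). Hopx, a homeodomain-only cofactor, rose from 6.51 to 15.1 CPM, and Ppargc1a, a co-activator of mitochondrial genes, from 4.84 to 7.86 CPM. Gata6, related to Gata4, fell from 14.9 to 10.9 CPM, Zfpm2, the GATA cofactor FOG2, from 16.7 to 10.5 CPM, and Isl1, a progenitor factor, from 0.952 to 0.433 CPM. Nkx2-5 was among the 4 listed members that did not pass the filter on low counts.

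Smooth muscle and myofibroblast genes rose under GMT and fell in mock. Of 22 members, 15 were called higher and 2 lower under GMT (median 0.41), against 5 higher and 11 lower in mock (median -0.17), and the change was more upward than in mock in 15 members and more downward in 6. Cnn1, the actin-binding calponin, went from 13.7, 13.3 and 14.3 to 73.0, 70.0 and 73.2 CPM (2.39 ± 0.08), still below mock (149 CPM at day 7). Tagln, transgelin, rose from 506 to 972 CPM and fell in mock from 1826 to 1315 CPM. Acta2, smooth muscle alpha-actin, rose from 1360.1 to 1865 CPM. Among 22 skeletal muscle genes tested, 9 were called higher and 5 lower (median 0.10), beside 27.5% and 24.4% of all genes tested. The lower count was 3 without day 2 replicate 1 or day 7 replicate 1. The median was 0.37 with the GMT libraries fitted alone, 0.27 without day 2 replicate 3, 0.22 without day 7 replicate 1 and 0.21 without day 7 replicate 2. Myl1, a fast light chain, rose from 6.66 to 42.7 CPM, and the regulator Myog stayed at 0.282 and 0.265 CPM.

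Most collagen genes and most genes of elastic fibres fell under GMT, and most rose in mock. Of 22 collagen genes, 13 were called lower and 4 higher (median -0.41), against 2 lower and 19 higher in mock (median 0.75). Col1a1, which encodes the alpha 1 chain of type I collagen, fell from 6438, 6253 and 6192 to 2612, 2405 and 2501 CPM (-1.33 ± 0.06, edgeR adjusted p = 1.93e-15), while mock cells went from 11896 to 21121 CPM. Col3a1, of type III collagen, fell from 1673, 1589 and 1588 to 332, 320.4 and 331 CPM (-2.30 ± 0.07). Its change in mock was the reverse, from 4755 to 12011 CPM, and the difference of the changes was -3.64 ± 0.09 on the log2 scale (adjusted p = 1.23e-19). Col1a2 fell from 5459.5 to 1638 CPM and Col5a1 from 1886 to 919 CPM. The 4 collagen genes that rose were Col4a1 (1973 to 2765 CPM) and Col4a2 (1464 to 2066 CPM) of basement membranes, Col7a1 and Col15a1.

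Of 32 genes of elastic fibres and matrix glycoproteins, 22 were called lower and 4 higher (median -0.83), against 5 lower and 25 higher in mock (median 1.01). Eln, which encodes tropoelastin, stood at 27.2, 23.9 and 28.1 CPM at day 2 and at 1.66, 2.80 and 5.48 CPM at day 7. In mock it stood at 30.0, 42.0 and 41.8 CPM and then at 2013, 1677 and 1373 CPM. The days thus separated in opposite directions, and the difference of -8.45 ± 0.29 in log2 was the lowest called interaction with mock (edgeR adjusted p = 1.65e-17). Eln lies on GRCm38 chromosome 5, 134702593 to 134747323. Mfap4, a microfibril protein, fell from 9.90 to 1.52 CPM and rose in mock from 114 to 644 CPM. Fn1, fibronectin, fell from 6683, 6906 and 6738 to 2476, 2426 and 2541 CPM (-1.45 ± 0.13), the largest loss in CPM among genes called and changed at least 2-fold. Lum and Ogn, small leucine-rich proteoglycans, fell to 3.75 and 8.45 CPM. The 4 members that rose were Thbs1 (2617 to 5180.1 CPM), which encodes thrombospondin 1, Spp1 (41.3 to 122 CPM), which encodes osteopontin, Prelp and Tnxb.

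**Figure D3:**
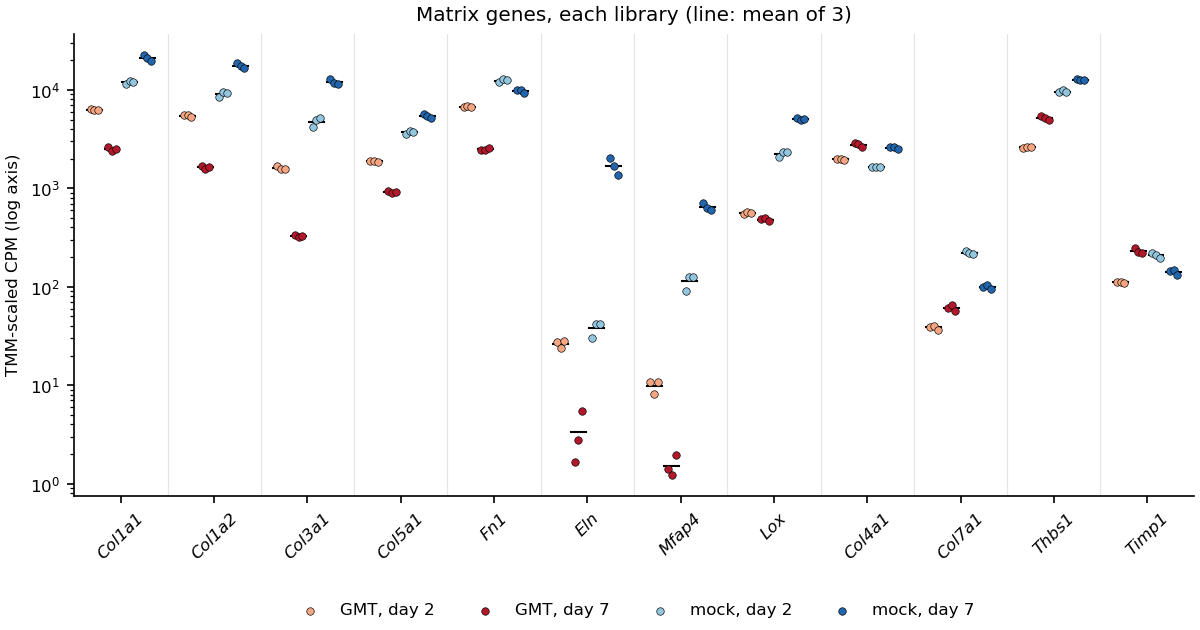
Levels of 12 matrix genes in each library of GMT and mock cells at days 2 and 7, in TMM-scaled CPM on a log axis, with a line at the mean of 3 libraries. The first 8 genes are lower at day 7 under GMT, and 7 of these (Fn1 excepted) are higher at day 7 in mock, while Col4a1, Col7a1, Thbs1 and Timp1 are higher at day 7 under GMT.

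Of 19 genes that modify and cross-link collagen, 12 were called lower and 3 higher (median -0.20). Serpinh1, the collagen chaperone, fell from 2822 to 2126 CPM, and Lox, the cross-linking oxidase, from 564 to 482 CPM against a rise in mock to 5089.7 CPM. P4ha1, a collagen prolyl hydroxylase, rose from 332 to 457 CPM. Matrix proteases and inhibitors split, with 13 of 23 higher and 7 lower, beside 27.5% and 24.4% of all genes tested. In mock 15 were higher and 5 lower. The change was more downward under GMT than in mock in 13 members and more upward in 5, beside 25.3% and 24.3% of all genes. Timp1, an inhibitor of metalloproteinases, rose from 111 to 231 CPM, whereas Mmp14 and Mmp2, which degrade collagen, fell to 250.4 and 58.6 CPM.

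Regulators and surface markers of fibroblasts did not fall as a block between the days. Of 30 members, 13 were called lower, 9 higher and 8 were not called (median -0.19), beside 24.4% lower and 27.5% higher of all genes. Against mock, 26 of 30 were already called lower at day 2 and 3 higher (median -1.57). At day 7 these counts were again 26 and 3 (median -1.84). Over all 17576 genes tested, 5824 were called lower than mock at day 2 and 6321 at day 7. The transcription factors Twist1 (28.6 to 18.5 CPM), Prrx1 (209 to 136 CPM), Tcf4 (130.2 to 72.3 CPM) and Osr1 (10.9 to 3.85 CPM) fell. The surface protein Thy1 stayed at 466 and 488 CPM and Pdgfrb, a growth factor receptor, at 99.6 and 93.4 CPM, and neither was called, apart from a lower call for Pdgfrb with the GMT libraries fitted alone. Ly6a, known as Sca-1, rose from 88.8 to 136 CPM, and Dpt, which encodes dermatopontin, from 7.52 to 22.1 CPM.

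Cell cycle genes were lower at day 7. Of 33 S phase genes, 25 were called lower and 1 higher (median -0.45), and of 30 G2 and M phase genes, 29 were called lower and 1 higher (median -0.84). In mock, 18 and 28 members of these lists were called lower. The change was more downward under GMT than in mock in 12 of 33 S phase and 18 of 30 G2 and M phase genes by the interaction test. Over all genes tested this share was 25.3%. In 21 S phase genes and 11 G2 and M phase genes no difference from mock was called. Top2a, the topoisomerase that untangles chromosomes, went from 70.5, 67.0 and 69.8 to 32.0, 30.7 and 40.9 CPM (edgeR adjusted p = 3.93e-09). Ccna2, cyclin A2, went from 24.4 to 10.8 CPM and Ccnb1, cyclin B1, from 15.8 to 7.82 CPM. Mcm6, of the replicative helicase, went from 68.5, 68.6 and 64.2 to 33.0, 32.6 and 33.7 CPM (-1.02 ± 0.05, edgeR adjusted p = 6.72e-14). Cenpa, the histone variant of centromeres, went the other way, from 121, 118 and 118 to 206, 211 and 204 CPM (0.79 ± 0.05), and fell in mock from 38.2 to 24.5 CPM.

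In the promoters of the S phase list, the E2F match GCGCGAAA was found in 4 of 27 genes with a window (14.8% against 0.3% of all genes). The 4 genes fell, as did 25 of the 33 members in all. In the G2 and M list, CCAAT was found in 18 of 24 genes with a window (75% against 37.5%) and the cell cycle homology element TTTGAA in 9 (37.5% against 18.3%). The 160 bases before the start of Mcm6 (chr1:128359706-128359865, minus strand), shown as an example, carry the E2F match in capitals.
Mcm6: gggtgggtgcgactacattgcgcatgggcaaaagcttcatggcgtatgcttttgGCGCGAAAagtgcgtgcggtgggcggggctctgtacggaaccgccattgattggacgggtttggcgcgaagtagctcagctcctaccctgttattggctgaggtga

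Inhibitors of the cell cycle did not all move one way. Cdkn2a, which encodes p16 and p19ARF, rose from 32.3, 31.5 and 32.1 to 103, 97.1 and 88.7 CPM (1.59 ± 0.08), and mock went from 33.3 to 86.7 CPM. The difference of these changes was 0.21 ± 0.11 in log2 (edgeR adjusted p = 0.115), and it was called with the GMT and mock libraries fitted alone. Cdkn1a, which encodes p21, rose from 1057 to 1506 CPM. Cdkn1c, which encodes p57, fell from 5.67 to 2.56 CPM and rose in mock from 34.7 to 256 CPM. Of 27 p53 targets and inhibitors in all, 13 were called higher and 10 lower, beside 27.5% and 24.4% of all genes tested.

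Genes of energy metabolism rose by small amounts in many members. Of 50 nuclear genes of oxidative phosphorylation, 38 were called higher and 12 were not called (median 0.24), against 3 higher and 17 lower in mock. Cycs, cytochrome c, rose from 26.4, 23.8 and 23.4 to 45.4, 47.5 and 45.8 CPM (0.91 ± 0.08) and Atp5b, a subunit of ATP synthase, from 1243 to 1483 CPM. The 37 genes of the mitochondrial genome stood at 0 counts in the table and were not measured. Of 28 genes of fatty acid oxidation, 17 were called higher and 2 lower, beside 27.5% and 24.4% of all genes tested. Many also rose in mock, with 14 called higher and 5 lower. The change was more upward under GMT than in mock in 12 members, more downward in 2 and not called different in 14. Acaa2, a thiolase of the last step, rose from 387 to 653 CPM, and Pdk4, a kinase that limits glucose oxidation, from 69.1, 67.4 and 69.2 to 243, 249.8 and 252 CPM (1.86 ± 0.05). Cpt1a, the liver-type importer of fatty acids into mitochondria, fell from 171 to 134 CPM.

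Glycolysis genes changed in opposite directions in GMT and mock cells. Under GMT, 22 of 25 were called higher and 1 lower (median 0.39; Pfkfb1, whose call was lost without any of 4 of the 6 libraries, day 2 replicates 1 and 2 and day 7 replicates 2 and 3), while in mock 5 were higher and 18 lower (median -0.80), and 20 differed upward in the interaction. Hk1, the first enzyme of the pathway in most tissues, rose from 205 to 377 CPM under GMT and fell in mock from 123 to 99.5 CPM. The muscle isoforms Eno3 (123 to 287 CPM) and Pgam2 (70.2 to 178 CPM) rose most in log2 terms among the called members. Genes of sterol and fatty acid synthesis rose in 18 of 29 members and fell in 3, or in 1 without day 2 replicate 3 or day 7 replicate 1. Scd1, a fatty acid desaturase, rose from 569 to 831 CPM.

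Interferon-stimulated genes fell under GMT, and less than in mock. Of 41 members, 37 were called lower and 2 higher (median -0.85), against 40 lower and 1 higher in mock (median -2.94). The change was less downward under GMT than in mock in 39 members by the interaction test. Isg15, a ubiquitin-like modifier, stood at 431, 439 and 401 CPM at day 2 and at 257, 272 and 218 CPM at day 7, while mock went from 439 to 39.9 CPM. The difference of the changes was 2.70 ± 0.35 in log2 (edgeR adjusted p = 5.82e-07). Ifit2, which binds foreign RNA, went from 215, 230.4 and 171 to 71.0, 79.8 and 72.1 CPM and Irf7, a regulator of interferon genes, from a mean of 220.0 to 161 CPM, against 155 to 14.9 CPM in mock. The Irf7 call under GMT was lost in DESeq2 and without any of 4 libraries (day 2 replicates 1 and 2, day 7 replicates 1 and 3). At day 7, Isg15, Ifit2 and Irf7 were each called higher under GMT than in mock, as were 37.1% of all genes. The 2 members that rose were Ifi27 (96.4 to 234 CPM) and Oas3, an RNA-sensing synthetase (52.7, 55.8 and 53.3 to 93.0, 98.0 and 86.4 CPM). Oas3 fell in mock from 15.9 to 1.19 CPM. Members of the Oas and Ifit families are similar in sequence, so reads could be split between them.

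The interferon-stimulated response element was searched as 2 copies of GAAA with 2 free bases between them. It was found in 14 of the 29 genes of the list with a promoter window (48.3%, against 3.46% of all genes). Of these 14 genes, 13 fell and 1, Oas3, rose, beside 37 lower and 2 higher of the 41 members in all. Isg15 (chr4:156200819-156200978, minus strand) and Ifit3 (chr19:34583369-34583528, plus strand), shown with the matches in capitals, carry more than 1 match, which overlap one another in Isg15. Ifit3 fell from 147 to 42.0 CPM.
Isg15: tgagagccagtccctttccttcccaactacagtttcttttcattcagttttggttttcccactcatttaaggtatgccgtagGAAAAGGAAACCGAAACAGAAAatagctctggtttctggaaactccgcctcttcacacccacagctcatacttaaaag
Ifit3: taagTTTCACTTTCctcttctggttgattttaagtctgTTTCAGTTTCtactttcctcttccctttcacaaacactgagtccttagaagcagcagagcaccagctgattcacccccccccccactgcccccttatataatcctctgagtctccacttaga

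**Figure D4:**
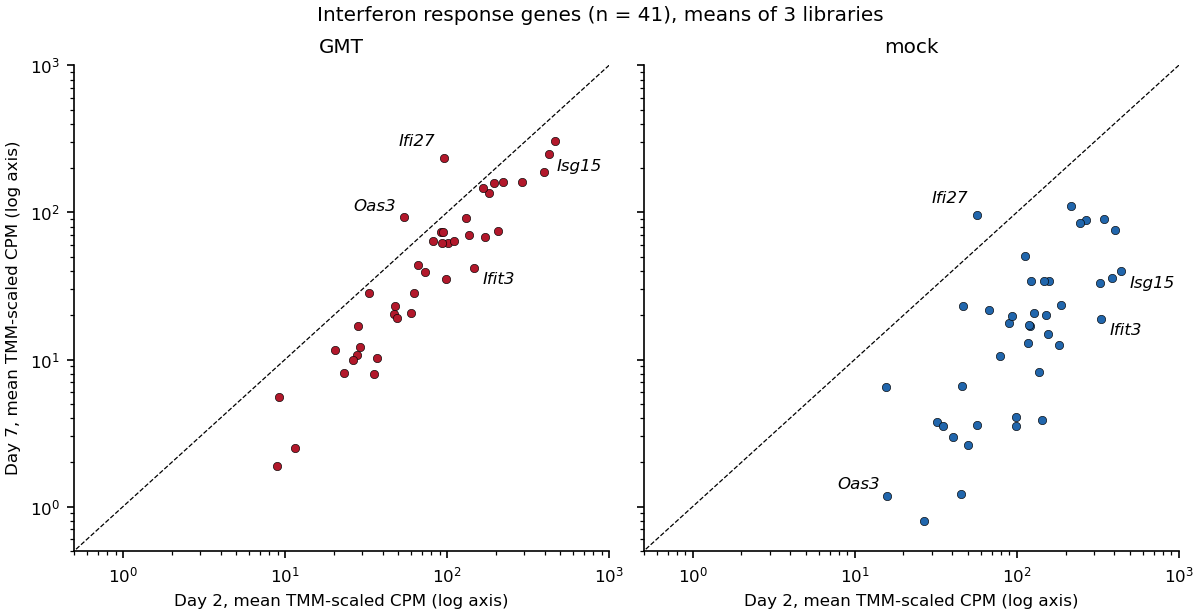
Mean level of each of 41 interferon response genes at day 2 (horizontal axis) and day 7 (vertical axis), in TMM-scaled CPM on log axes, in GMT cells (left) and mock cells (right), with a dashed line at equality. Most genes lie just under the line in GMT cells and far under it in mock cells, and Ifi27 and Oas3 lie above it in GMT cells.

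Inflammatory genes and chemokines went the other way, with 18 of 28 called higher and 2 lower (median 0.74), or 1 lower without day 2 replicate 1, day 7 replicate 1 or day 7 replicate 3. In mock 12 were higher and 11 lower. Ptgs2, the inducible cyclooxygenase, went from 7.96, 6.40 and 6.92 to 122, 106 and 94.3 CPM (3.92 ± 0.12, edgeR adjusted p = 1.27e-18), while mock fell from 153 to 61.7 CPM. The libraries of the days did not overlap in either group. Ccl2, a chemokine for monocytes, rose from 17.0 to 43.7 CPM, against a fall in mock from 96.8 to 31.2 CPM. Vcam1, an adhesion molecule, rose from 122 to 227 CPM.

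A list of EGF receptors, their ligands and genes that respond to ERK signals rose in 22 of 33 members and fell in 5 (median 0.52), against 9 and 18 in mock (median -0.29). Among the ligands, Hbegf went from 139, 133 and 133 to 346, 355 and 322 CPM (1.34 ± 0.08) and Ereg from 18.9 to 52.9 CPM. Among the feedback phosphatases, Dusp6 rose from 59.2 to 137 CPM and Dusp5 from 38.8 to 85.2 CPM. Spry1, another feedback inhibitor, fell from 17.6 to 11.8 CPM. A list of TGF-beta, BMP and YAP signalling, which holds ligands, receptors and an antagonist beside responding genes, rose in 17 of 26 members and fell in 5 (median 0.41). Ctgf went from 406, 406 and 406 to 942, 964 and 882 CPM (edgeR adjusted p = 2.07e-12) and Ankrd1, also a stress-responsive sarcomere protein, from 1163 to 2602 CPM. Bmp4, a ligand, fell from 6.47 to 2.05 CPM and Id2, an inhibitor of helix-loop-helix factors, from 39.7 to 22.3 CPM.

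Wnt and Notch genes were lower in 14 of 29 members and higher in 2 (median -0.27), while 19 were higher in mock. Jag2, a Notch ligand, went from 15.9, 15.4 and 13.3 to 3.68, 3.57 and 2.69 CPM (-2.17 ± 0.12), and the Notch target Hey1 from 2.35 to 0.917 CPM. Notch3, a receptor, fell from 101 to 65.0 CPM. Sfrp2, a secreted Wnt modulator, fell from 9.43 to 1.70 CPM and rose in mock from 7.10 to 90.8 CPM. The list of Atf4, related factors and amino acid response genes was split (12 higher, 9 lower of 29, beside 27.5% and 24.4% of all genes). Nupr1, a stress-induced nuclear protein, rose from 84.9 to 181 CPM and the transporter Slc1a5 fell from 33.9 to 21.4 CPM. The amino acid response element TGATGNAA was found in 7 of 25 genes of that list with a window (28% against 3.9%). Of those genes 5 rose, beside 12 of the 29 members in all. The unfolded protein response had 10 members higher and 2 lower of 22, and the lower count was 1 without day 2 replicate 1 or day 7 replicate 1 and 4 without AGHMT day 2 replicate 3. Its chaperone Hspa5 stayed at 1023 and 1003 CPM.

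Markers of other cell types were checked in the same way. Of 23 macrophage genes, 1 was called higher and 5 lower under GMT (median -0.31, or -0.18 without day 2 replicate 1). Over all genes tested, 27.5% were called higher and 24.4% lower, so the 5 lower calls are no more than that share. With no filter, and with the GMT libraries fitted alone, 3 were called higher and 9 lower, and with the replicate block 2 and 5. In mock all 23 rose (median 2.93) and all 23 differed in the interaction. The 5 called lower were Cd14 (2.27 to 1.48 CPM), Fcgr1, Fcer1g, Itgb2 and Mpeg1 (9.51 to 6.02 CPM), and the Fcer1g call was lost without day 7 replicate 2. The defining markers Cd68 (4.39 and 3.60 CPM), Adgre1 (1.51 and 1.57 CPM) and Ptprc (1.08 and 0.714 CPM) were not called under GMT. With no filter, and with the GMT libraries fitted alone, Cd68 and Ptprc were called lower, and Ptprc also without day 7 replicate 1. Summed over the list, Csf1r included, GMT libraries held 81.5, 61.6 and 79.9 CPM at day 2 and 90.1, 78.3 and 74.3 CPM at day 7, which overlap. Csf1r, the macrophage gene that rose, went from 13.4 to 25.8 CPM within these sums. Mock libraries held 84.7, 87.8 and 86.5 CPM at day 2 and 742.0, 505.4 and 733.1 CPM at day 7. Comparisons of GMT with mock at day 7 therefore carry a macrophage gain in mock, and its part in the results that differ from mock was not tested. Macrophage genes also rose under AGHMT (17 of 23 called higher and 1 lower, median 1.15), and under GHMT 7 were called higher and 0 lower. Over all 17576 genes, 5192 and 4508 were called higher under these cocktails. The change was more downward under GMT than under AGHMT in 17 of 23 (16 without AGHMT day 2 replicate 3), so comparisons with AGHMT carry the same limit.

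Of 10 epithelial and mesothelial genes tested, 7 were called higher and 2 lower (median 1.64). Msln, mesothelin, went from 9.07, 8.82 and 8.10 to 159, 148 and 135 CPM (4.08 ± 0.08), and it also rose in mock, from 12.7 to 65.1 CPM. Krt18, a keratin of simple epithelia, went from 6.33, 6.29 and 5.43 to 54.0, 56.5 and 55.8 CPM (3.20 ± 0.09) and fell in mock from 6.81 to 4.13 CPM. The defining genes Epcam and Cdh1 did not pass the filter on low counts. Keratin genes have many similar copies, which makes their counts uncertain. Of 14 genes of neurons and glia, 10 were called higher and 1 lower, among them Tubb3 (59.4 to 107 CPM), a neuronal tubulin, and Nes (124 to 181 CPM), an intermediate filament of progenitors. Of 17 adipocyte genes, 11 rose and 2 fell (1 without day 2 replicate 1), with Pparg, the master regulator, at 10.3 and 18.7 CPM. Of 13 endothelial genes, 5 were called higher and 2 lower (1 lower without day 2 replicate 1, day 2 replicate 3 or day 7 replicate 3). Of 14 cartilage and bone genes, 5 were called higher and 4 lower, Mef2c of the cocktail among the latter. Over all genes tested, 27.5% were called higher and 24.4% lower. The shares called higher in the epithelial, neural and adipocyte lists lie above this, and those of the endothelial and cartilage lists lie nearer to it. With 10 to 17 members in a list and no set test, these counts are not read as a result.

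**Figure D5:**
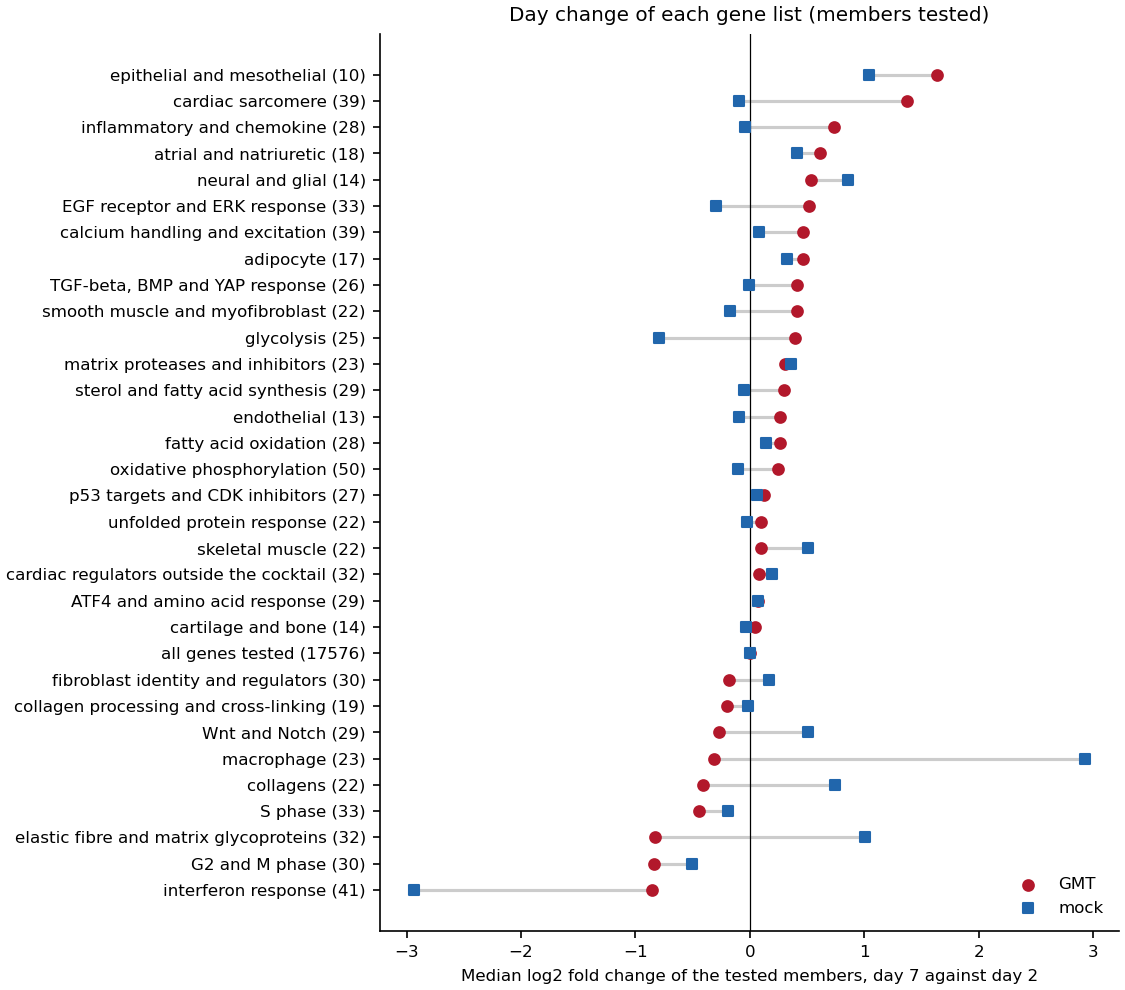
Median log2 fold change from day 2 to day 7 over the tested members of each gene list, in GMT cells (red circles) and mock cells (blue squares), with the number of members in parentheses. The sarcomere list stands at 1.38 under GMT and -0.09 in mock, and the elastic fibre, collagen, macrophage and glycolysis lists lie on opposite sides of 0 in the 2 groups.

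Across all genes tested, those with the highest log2 changes among well-measured genes (at least 5 CPM in the higher group) included Mal, a membrane raft protein, from 0.0775, 0.254 and 0.0891 to 15.5, 13.1 and 12.1 CPM, and Esm1, endothelial cell-specific molecule 1, from 0.491, 0.508 and 0.445 to 9.43, 8.94 and 9.22 CPM. Cyp1a1, a target of the aryl hydrocarbon receptor, rose from 0.648 to 8.91 CPM. Among the lowest were Krt15, a keratin (5.55 to 0.568 CPM), Slpi, a secreted protease inhibitor (7.32 to 1.02 CPM), and Pth1r, the receptor of parathyroid hormone (25.4 to 3.77 CPM). The growth factor Igf2 went from 381, 388 and 393 to 61.7, 58.6 and 58.4 CPM (-2.70 ± 0.07), and its neighbour, the noncoding RNA H19, from 215, 209 and 235 to 31.1, 31.0 and 42.1 CPM (-2.66 ± 0.10). They lie together on GRCm38 chromosome 7, Igf2 at 142650766 to 142666816 and H19 at 142575529 to 142578143. Among genes called and changed at least 2-fold, the largest gains in CPM included Gpx3, an extracellular glutathione peroxidase (1899 to 4334 CPM), Clu, clusterin, a secreted chaperone (724 to 2763 CPM), and Dsp, desmoplakin of cell junctions (682 to 2448 CPM).

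The day change under GMT was set against the day changes under the larger cocktails by the same interaction test, again with no library in common. It differed in 2925 genes (16.6%) from that under GHMT, which adds the factor Hand2, and in 5288 (30.1%; 13.9% upward and 16.2% downward) from that under AGHMT. Whether these counts differ from each other was not tested. Among the genes called different from GHMT, 1593 (9.06% of those tested) moved upward under GMT relative to GHMT and 1332 (7.58%) downward. Of 39 sarcomere genes, 14 changed more upward under GMT and 8 more downward. Without GHMT day 2 replicate 3 these counts were 13 and 5, and without GHMT day 7 replicate 2 they were 14 and 6. Myh6 rose more under GMT in log2 terms (difference 1.95 ± 0.12, edgeR adjusted p = 3.92e-11), from a lower start: GHMT cells went from 194 to 887 CPM. Actc1 rose less (-1.25 ± 0.10), and GHMT cells stood at 90.0 and 876 CPM. Casq2 also rose more under GMT (1.31 ± 0.07) from a lower start, since GHMT cells held 1677 CPM at day 2 and 2329.6 CPM at day 7.

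Hcn4 fell under GMT and stayed at 412 and 414 CPM under GHMT, a difference of -1.66 ± 0.19 (edgeR adjusted p = 8.95e-07). Interferon genes fell less under GMT than under GHMT in 16 of 41 members. This count was 11 without GHMT day 2 replicate 3 and 12 without GHMT day 7 replicate 2, which lie farther from their groups (chi-square per degree of freedom 7.59 to 11.6). Glycolysis genes changed more upward under GMT in 15 of 25 members and more downward in 1, the same counts without either of those 2 libraries. Sterol and fatty acid synthesis genes changed more upward in 14 of 29 members (12 and 11 without each of the 2 libraries). The Hcn4 difference was -1.58 and -1.76 without them.

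Against AGHMT, which also adds the kinase Akt1, 37 of 41 interferon genes fell less under GMT (38 without AGHMT day 2 replicate 3). Of 32 elastic fibre and matrix genes, 21 changed more downward under GMT and 3 more upward (18 and 4 without that library). Of 22 smooth muscle genes, 15 changed more downward and 5 more upward, with the same counts without it. Against GHMT, 11 of these genes changed more upward and 1 more downward. Fn1 fell under GMT from 6776 to 2481 CPM and stood at 4925 and 5362 CPM under AGHMT, a difference of -1.57 ± 0.19 in log2 (-1.34 without that library). Of 39 sarcomere genes, 9 changed more upward under GMT and 14 more downward, beside 13.9% and 16.2% of all genes tested. Without that library these counts were 10 and 16. Myh6 was among those that rose more in log2 terms under GMT (2.40 ± 0.12, and 2.46 without that library). It stood at 1381 and 4610.3 CPM under AGHMT, so its level under GMT at day 7 was below the AGHMT level at day 2.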

How the data were processed

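Total RNA of mouse embryonic fibroblasts was extracted with TRIzol and sequenced, per the labels' protocols. The values used are raw whole-number counts per gene as deposited by the authors, for 47967 genes in 24 libraries, of which 13946 genes had 0 counts everywhere. HISAT2 2.0.1, featureCounts 1.4.6, Trim Galore 0.4.1, DESeq2 1.6.3 and the build GRCm38 (mm10) appear in the submitters' processing notes, with no role or order. Annotation release and strand setting: not given in the sources used here. Thus reads of overlapping or antisense genes may be counted together. A second deposited table of log-scale CPM was not used. All samples and columns were mapped to groups by their titles.

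Genes that passed edgeR's filterByExpr over the 8 groups (17576) were fitted with edgeR 4.0.16 in R 4.3.3 (TMM scaling, quasi-likelihood F test, 1 mean per group, all 24 libraries, 16 residual degrees of freedom, common biological coefficient of variation 5.55%). Tests were two-sided, and a gene was called where its p, adjusted by Benjamini-Hochberg over all genes, was under 0.05. The main comparisons were GMT and mock at day 7 against day 2, and the GMT day change minus that of mock, GHMT and AGHMT. Day 7 against day 2 under GHMT and AGHMT, and GMT against mock at each day, were tested in the same fit. Standard errors are the log2 fold change divided by the square root of F. Values after ± are these standard errors, and levels are TMM-scaled CPM by library or as the mean of 3 libraries. A gene at 0 in a group has a fitted fold that depends on the prior count, so levels are given for such genes.

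The members, the 31 gene lists and the tests were chosen with earlier results of these data known. Lists are described by counts and medians, with no set test. Named genes were the factors, the 12 highest and 12 lowest log2 changes among called, non-overlapping genes with at least 5 CPM, the 8 largest gains and losses of CPM among genes changed at least 2-fold, the 6 highest and 6 lowest of each interaction, and in each list the 6 members with the smallest adjusted p, the first in the opposite direction and those opposite to mock. Outside this rule, Adgre1, Cacna1c, Cd68, Col4a1, Col4a2, Corin, Des, Hspa5, Ifit3, Irf7, Isg15, Isl1, Kcnj2, Myh7, Myl2, Myl7, Myog, Pdgfrb, Ppargc1a, Ptprc, Ryr2, Slc8a1, Thy1, Tnnc1, Tnnt2, Ttn and Vim were named after their values were seen. Some genes that met the rule are not reported here. Coordinates are from GENCODE M21 (GRCm38), which held 99.7% of tested genes, and promoter sequences from RefSeq (GRCm38.p6), in which 27018 genes had a usable window.

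The test was checked on simulated counts with known changes, in 45 to 48 genes at each size. It recovered 29.8% of 1.2-fold, 64.6% of 1.5-fold, 86.7% of 2-fold and 95.7% of 4-fold changes. Of 16274 unchanged genes, 7 were called. The real data hold far more changed genes, so these rates need not carry over. Alternatives were median-of-ratios (RLE) scaling, DESeq2 1.42.0, no filter, only the compared libraries, the replicate number as a block and each library left out. The deposited totals limit precision for genes at a few counts.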

Additional observations from a re-analysis of the deposited data

Results flagged for a closer look

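The day change under GMT differed by the interaction test from that of each other group. Against mock, 4265 genes changed more upward under GMT and 4442 more downward. Against GHMT these counts were 1593 and 1332, and against AGHMT 2448 and 2840.

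Among the genes with the largest differences from mock, those measured above 0.1 CPM in all 4 groups were Crct1 (difference in log2 change 6.11) and Ptgs2 (5.23) upward, and Eln (-8.45), Fcrls (-7.26) and Adamts17 (-7.25) downward. Fcrls, a gene of macrophages and microglia, went from 0.454 to 0.104 CPM under GMT and from 0.688 to 24.8 CPM in mock. Adamts17, a secreted protease, went from 17.3 to 3.80 CPM under GMT and from 0.391 to 13.3 CPM in mock.

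Against GHMT, the largest upward differences were H2-Q10 (3.43), Mcpt2 (2.79), Ccl5 (2.28), Ndnf (2.23), Tgtp2 (2.16) and Nxf7 (2.14). The largest downward differences were Nefl (-4.13), Nefm (-3.17), Col10a1 (-3.11), Serpina3n (-2.83), Padi2 (-2.66) and Pvalb (-2.63). Nefl and Nefm encode neurofilament chains: Nefl went from 10.0 to 5.58 CPM under GMT and from 0.221 to 2.20 CPM under GHMT.

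Against AGHMT, the largest upward differences were Grin2c (3.86), Oasl1 (3.60), Rsad2 (3.51), Lrrc8e (3.51), Nxf7 (3.45) and Ccl5 (3.41). The largest downward differences were Iqsec3 (-5.0), Ryr1 (-4.82), Chrnb3 (-4.76), Tmem132b (-4.69), Padi2 (-4.08) and Prr32 (-4.04). Ryr1, the calcium release channel of skeletal muscle, stood at 1.63 and 1.19 CPM under GMT and reached 33.0 CPM at day 7 under AGHMT. Without AGHMT day 2 replicate 3, the Ryr1 difference was -4.65 and the Iqsec3 difference -4.80.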

How the results depend on the processing

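The 10 counts of called genes, higher and lower in each of the 5 main comparisons, stayed within 1.5 times of their value under every alternative run. No called change of a named gene reversed, and no list median was counted as reversed. The medians of other cardiac regulators (0.0839), skeletal muscle (0.0958), the amino acid response (0.0697) and cartilage and bone (0.0411) were too small for a reversal to be counted. Under GMT, RLE scaling gave 4887 higher and 4267 lower, DESeq2 4738 and 4079, no filter 4579 and 4350, and the compared libraries alone 5297 and 5271. Leaving out each library gave 4361 to 4489 higher and 3781 to 3900 lower. Deviations of same-numbered GMT libraries correlated weakly between the days (0.0092, 0.127 and 0.112), against -0.117 to 0.00609 for libraries of unlike number. Whether the numbers pair the libraries was not settled by these values. The fit with the replicate block gave 4799 higher and 4265 lower. A fit with AGHMT day 2 replicate 3 left out of the shared spread was chosen after seeing the data and gave 5302 and 4779. Under RLE scaling, 9086 of the 9115 called genes were called with the same sign. Of 474 changes of named genes, 4 lost their call under DESeq2, 7 with no filter and 1 with the block, while 3 gained one with no filter and 6 with the compared libraries alone. Leaving out single libraries lost 81 calls of these changes, counted over pairs of change and library, and gained 1. With the compared libraries alone, the counts called lower were 4 for smooth muscle, 5 for sterol and fatty acid synthesis, 6 for the unfolded protein response and 1 for oxidative phosphorylation. The epithelial median ran from 1.53 to 2.30 as libraries were left out. At these depths a gene at a few counts per library gives a wide error, and a gene that was not called is not shown to be unchanged.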

Other observations

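Imprinted genes are expressed from 1 parental copy and many act in fetal growth. A list of 22 imprinted genes was drawn up after values of some members were seen, so its counts are a description only. Under GMT, 14 were called lower and 5 higher (median log2 change -0.64), against 1 lower and 17 higher in mock (median 0.51). Besides Igf2 and H19, the maternally expressed noncoding RNA Meg3 went from 289, 304 and 287 to 159, 145 and 142 CPM (-0.98 ± 0.09), and its paternally expressed neighbour Dlk1, a Notch-related surface protein, from 11.0, 9.64 and 10.6 to 3.23, 3.23 and 4.46 CPM (-1.51 ± 0.14). In mock, Dlk1 rose from 35.5 to 717 CPM. Plagl1, a zinc finger regulator, fell from 94.0 to 33.3 CPM and Peg3, another zinc finger protein, from 323 to 215 CPM. Among the members that rose were Igf2r, the receptor that clears Igf2, from 1642, 1674 and 1677 to 2235, 2345 and 2432 CPM (0.49 ± 0.11) and Phlda2, which limits placental growth and reached 8.49 CPM at day 7.

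Ribosomal protein genes, a list also taken after seeing the data, were called lower in 60 of 84 members and higher in 3 under GMT (median -0.27), and lower in 26 and higher in 3 in mock (median -0.13). These genes have many pseudogene copies that could share their reads.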
